A study of Mus musculus with 6 samples.

Results

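The 33 genes described here are genes that mark T cells and natural killer (NK) cells, listed by name and read from arrays of a mouse B-cell line. A gene was measured where a probe set of the array was annotated with its symbol alone, and the brightest such probe set was used. That gave 31 genes with 1 probe set each, out of 19937 genes named in the same way on 34760 probe sets. Lck and Tcf7 were not analysed here. The labels describe 230-238 as a B-cell line, and 3 samples came from cells infected with a plasmid for green fluorescent protein (GFP) only, called GFP alone here, and 3 from cells infected with a plasmid for GFP together with FOG1. FOG1, encoded by Zfpm1, is a protein that works with GATA transcription factors. All cells were cultured for 3 days, sorted for GFP and cultured for 4 more days, and each sample was run on 1 array. The labels call the samples biological replicates and name 1 cell line, and nothing in them says that cultures were infected separately, so each p-value reflects the spread among these arrays, which may be technical. All values below are log2 signals, and differences are log2 changes, given as GFP and FOG1 minus GFP alone.

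T cells recognise antigen through a T cell receptor that signals by way of the CD3 chains, the kinases LCK and ZAP70 and the adaptor LAT. NK cells carry no such receptor and kill through granules that hold perforin and granzymes. Several surface proteins named for T cells are also known from B-lineage cells, among them CD2, CD5 and CD25, the product of Il2ra, which is used as a marker of pre-B cells. GATA3 is the GATA factor of the T lineage, and FOG1 is known to bind it.

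Array values at single probe sets include an unknown background, and probe sets differ in brightness. A signal above the median of the array is therefore a description and not a detection call, and the order of the genes by signal is not an order of RNA amounts. In bulk RNA, fewer cells that carry a transcript and less transcript per cell cannot be told apart. The B-cell label held in the data. Of 14 measured B-lineage markers, 13 were above the median signal, and on the GFP-alone arrays Cd79a and Igll1 both lay at percentile 99.7 of the table and Pax5 at percentile 98.7. Dntt, an enzyme of early lymphocytes, lay at percentile 63.2, and Rag2, at percentile 44.0, was the marker below the median. Zfpm1 signal was 9.41, 9.49 and 9.43 with GFP alone and 10.21, 10.16 and 10.17 with FOG1, and this rise of 0.74 (SE 0.045) passed the test (limma adjusted p = 0.0038). On the first principal component FOG1 replicate 1 lay at 1.15, between the GFP-alone arrays, at -16.1 to -11.4, and FOG1 replicates 2 and 3, at 17.0 and 24.3.

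The promoters of 4 of the genes are shown. Cd5, Cd8a and Cd247 are 3 of the 5 genes whose FOG1 values all lay below their GFP-alone values. The remaining genes of these 5, Thy1 and Cd2, had no RefSeq promoter to show. Cd3g is shown because its promoter held a GATA motif, and not for its change. Each is the 250 bases before an annotated RefSeq start, 5′ to 3′ on the strand of the gene, in build GRCm38.p6. Cd3g lies at chr9:44980432-44980681 (minus strand), Cd5 at chr19:10738975-10739224 (minus strand), Cd8a at chr6:71373177-71373426 (plus strand) and Cd247 at chr1:165788431-165788680 (plus strand). For Cd5 and Cd247 RefSeq places the outer end of the gene further upstream, by 52 and 8729 bases, so 52 bases of the Cd5 window and the whole Cd247 window lie inside the range of the gene. Capitals mark the motif that GATA factors are known to bind, searched on both strands as the letters GATA with A or T before them and A or G after them.
Cd3g: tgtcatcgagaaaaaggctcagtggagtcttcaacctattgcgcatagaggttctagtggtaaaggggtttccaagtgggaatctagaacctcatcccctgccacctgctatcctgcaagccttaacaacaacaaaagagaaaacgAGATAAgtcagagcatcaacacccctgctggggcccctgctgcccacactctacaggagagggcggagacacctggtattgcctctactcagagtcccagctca
Cd5: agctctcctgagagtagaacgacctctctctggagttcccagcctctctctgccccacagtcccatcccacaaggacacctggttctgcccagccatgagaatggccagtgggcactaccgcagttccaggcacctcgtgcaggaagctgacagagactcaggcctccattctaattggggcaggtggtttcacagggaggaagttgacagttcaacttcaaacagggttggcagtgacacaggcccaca
Cd8a: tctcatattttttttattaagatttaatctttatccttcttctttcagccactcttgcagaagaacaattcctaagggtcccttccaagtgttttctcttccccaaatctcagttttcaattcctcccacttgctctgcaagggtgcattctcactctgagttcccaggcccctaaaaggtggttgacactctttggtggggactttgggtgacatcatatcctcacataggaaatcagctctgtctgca
Cd247: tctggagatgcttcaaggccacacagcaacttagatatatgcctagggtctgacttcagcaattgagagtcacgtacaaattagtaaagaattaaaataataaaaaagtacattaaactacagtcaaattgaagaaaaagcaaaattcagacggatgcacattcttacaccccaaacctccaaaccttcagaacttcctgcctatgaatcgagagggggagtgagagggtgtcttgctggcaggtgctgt
The match in Cd3g was AGATAA, and its first base lay 104 bases before the start. The other 3 windows held no match. RefSeq promoters were found for 22 of the 31 genes, with 27 starts, and 2 of the 27 windows held a match (7.41%), those of Cd3g and of 1 of the Txk starts, against 26.5% of 32851 windows over all genes. A match is a description of the letters only.

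On the GFP-alone arrays, 9 of the 31 genes (29.0%) had a mean above 7.01, the median of all values of these arrays, against 53.2% of all 19937 genes. The 9 were Cd2, Il2ra, Id2, Thy1, Lat, Cd5, Bcl11b, Prf1 and Cd3e. Just inside the line were Cd3e at a mean of 7.04 and Prf1 at 7.10, and just outside was Nkg7 at 6.87. Cd3e was above the line on 2 of the 3 arrays and the other 8 genes on all 3. The remaining 22 genes lay between percentile 12.4 (Ncr1) and percentile 47.6 (Nkg7) of all probe sets.

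**Figure D1:**
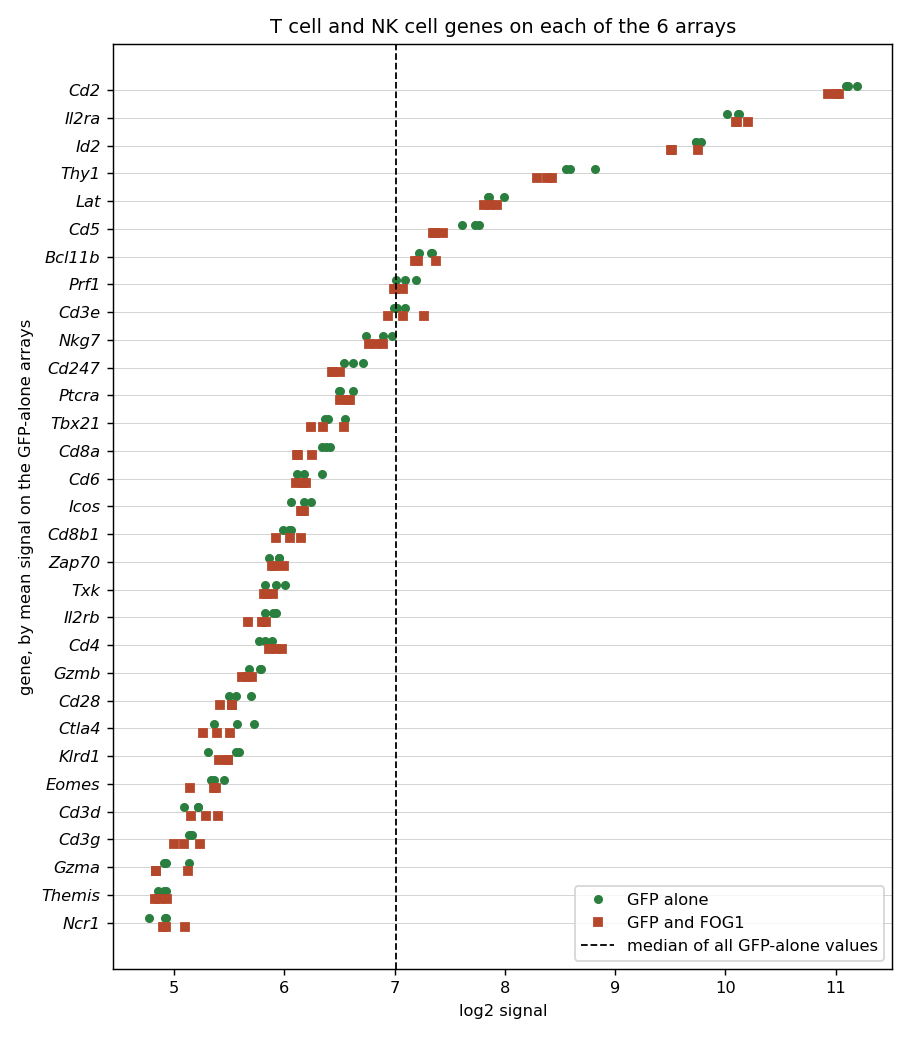
Log2 signal (x axis) of the 31 measured T cell and NK cell genes (y axis, ordered by mean signal on the GFP-alone arrays), with a circle for each of the 3 GFP-alone arrays and a square for each of the 3 GFP and FOG1 arrays. The dashed line is the median of all GFP-alone values, 7.01, and 9 genes have a GFP-alone mean to its right.

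None of the 31 genes passed an adjusted p of 0.05 between the groups (limma with Benjamini-Hochberg over all probe sets), where 0.224% of all probe sets did. At an unadjusted p under 0.05 there were 5 genes, or 16.1% of the 31, against 12.5% of all probe sets in either direction and 6.94% lower with FOG1. The same 5, namely Cd5, Cd8a, Thy1, Cd247 and Cd2, were those whose groups did not overlap, against 19.6% of all probe sets in either direction and 10.5% with the FOG1 arrays lower. All 5 lay lower on the FOG1 arrays. The share of genes with separate groups, also 16.1%, was below that of all probe sets over both directions and above that of probe sets lower with FOG1. Over all 19937 genes, 11.0% had an unadjusted p under 0.05. The groups of 20.8% of them did not overlap, and 10.5% were apart with FOG1 lower. Of the 31 changes, 22 were negative (71.0%), against 54.2% of all genes, and the median change was -0.05, against -0.01 over all probe sets. The unadjusted 95% intervals ran no lower than -0.49 (Thy1), a 1.40-fold lower level, and no higher than 0.29 (Cd3d), a 1.22-fold higher one. Zero lay inside 26 of the 31 intervals.

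**Figure D2:**
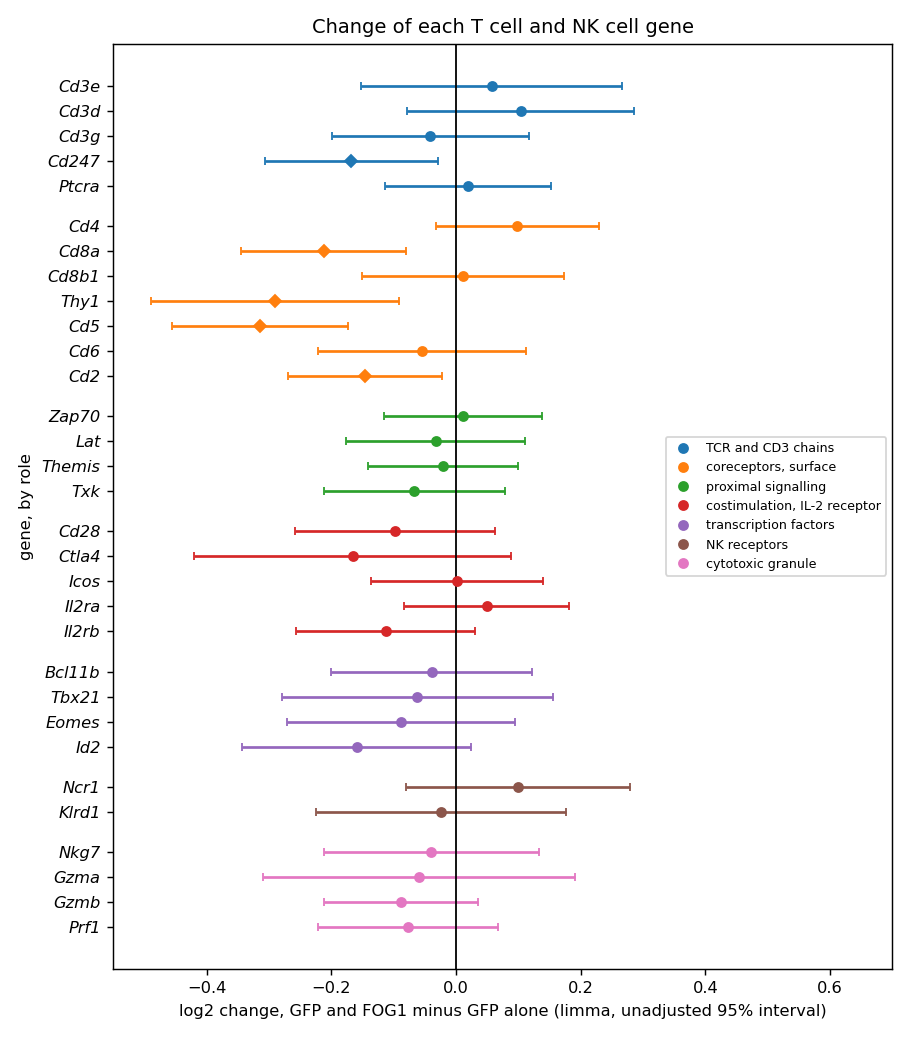
Log2 change (x axis, GFP and FOG1 minus GFP alone) of each of the 31 genes (y axis, grouped and coloured by role), with the unadjusted 95% interval from limma. Diamonds are the 5 genes whose groups did not overlap, all on the negative side, and circles are the other 26.

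The chains of the receptor complex differed among themselves in level and had small changes. Cd3e, Cd3d and Cd3g encode the CD3 epsilon, delta and gamma chains, which carry the receptor's signal, and they neighbour each other on chromosome 9. Cd3e (probe set 10593024) was 7.10, 6.99 and 7.02 with GFP alone and 7.08, 6.94 and 7.27 with FOG1. Its highest and lowest values both came from FOG1 arrays, so its groups overlapped, and the change was 0.06 (SE 0.087; limma adjusted p = 0.81). Cd3d (10584821) was 5.09, 5.22 and 5.22 with GFP alone and 5.40, 5.16 and 5.29 with FOG1, a change of 0.10 (SE 0.076; limma adjusted p = 0.60). Cd3g (10593015) was 5.16, 5.13 and 5.16 with GFP alone and 5.23, 5.003 and 5.09 with FOG1, a change of -0.04 (limma adjusted p = 0.81). Both chains were dim, at percentiles 16.5 and 16.2, and in each the groups overlapped.

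Cd247 encodes the zeta chain, which carries most of the activation motifs of the complex and which NK cells also use. Its probe set (10351353) was 6.62, 6.71 and 6.54 with GFP alone and 6.43, 6.44 and 6.50 with FOG1. The highest FOG1 value lay just under the lowest GFP-alone value, and the change of -0.17 (SE 0.058) did not pass (limma adjusted p = 0.34). Ptcra, which encodes the pre-T alpha chain of immature thymocytes, was 6.50, 6.51 and 6.63 with GFP alone and 6.51, 6.58 and 6.60 with FOG1. Its groups overlapped, with a change of 0.02 (limma adjusted p = 0.90).

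Of the 7 coreceptors and surface markers, 4 had separate groups, all lower with FOG1 (57.1%, against 10.5% of all probe sets separate and lower and 19.6% in either direction). Cd5 (10466040), an inhibitory receptor of T cells that is also found on a subset of B cells, had the smallest p of the 31. It was 7.61, 7.77 and 7.73 with GFP alone and 7.37, 7.35 and 7.44 with FOG1. All 3 FOG1 arrays lay below all 3 GFP-alone arrays, by a mean of 0.32 (SE 0.059), which is 1.24-fold, but the gene missed the threshold (limma adjusted p = 0.15). By unadjusted p it ranked 301 in the table of 34760 probe sets. Cd6, a receptor related to CD5 whose gene is its neighbour on chromosome 19, had overlapping groups with means of 6.21 ± 0.12 and 6.16 ± 0.04 (SD, n = 3 per group) and a change of -0.05. Whether these neighbours differed in their change was not tested.

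Thy1 (10584628), a glycoprotein anchored in the membrane by a lipid and used as a marker of mouse T cells, was 8.82, 8.59 and 8.56 with GFP alone. It was 8.38, 8.29 and 8.43 with FOG1, all below the GFP-alone values, with GFP-alone replicate 1 the highest array. The change was -0.29 (SE 0.083; limma adjusted p = 0.28). Without GFP-alone replicate 1 it was -0.21. Cd2 (10500677), an adhesion receptor that mouse B cells also carry, was the brightest of the 31, at percentile 96.0. It was 11.09, 11.19 and 11.12 with GFP alone and 10.93, 11.03 and 11.00 with FOG1, a change of -0.15 (SE 0.051; limma adjusted p = 0.35).

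Cd8a (10538993) encodes the alpha chain of the CD8 coreceptor, which binds MHC class I. It was 6.34, 6.38 and 6.41 with GFP alone and 6.12, 6.25 and 6.12 with FOG1, so the groups were apart. Its change of -0.21 (SE 0.055) did not pass (limma adjusted p = 0.24), and its signal lay below the median, at percentile 38.0. Cd8b1, the neighbouring gene of the CD8 beta chain on chromosome 6, was at 6.03 ± 0.04 and 6.04 ± 0.12 (SD, n = 3 per group), a change of 0.01. Cd4 (10547894), the coreceptor for MHC class II, was 5.77, 5.88 and 5.82 with GFP alone and 5.93, 5.86 and 5.98 with FOG1. Its groups overlapped because FOG1 replicate 2 lay under GFP-alone replicate 2, and the change was 0.10 (SE 0.055; limma adjusted p = 0.50). After quantile normalization or centring of each array on its median its groups were apart, with the FOG1 arrays higher, and 6 of the 31 genes (19.4%) were then apart instead of 5, against 19.0% and 21.2% of all probe sets under these settings.

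**Figure D3:**
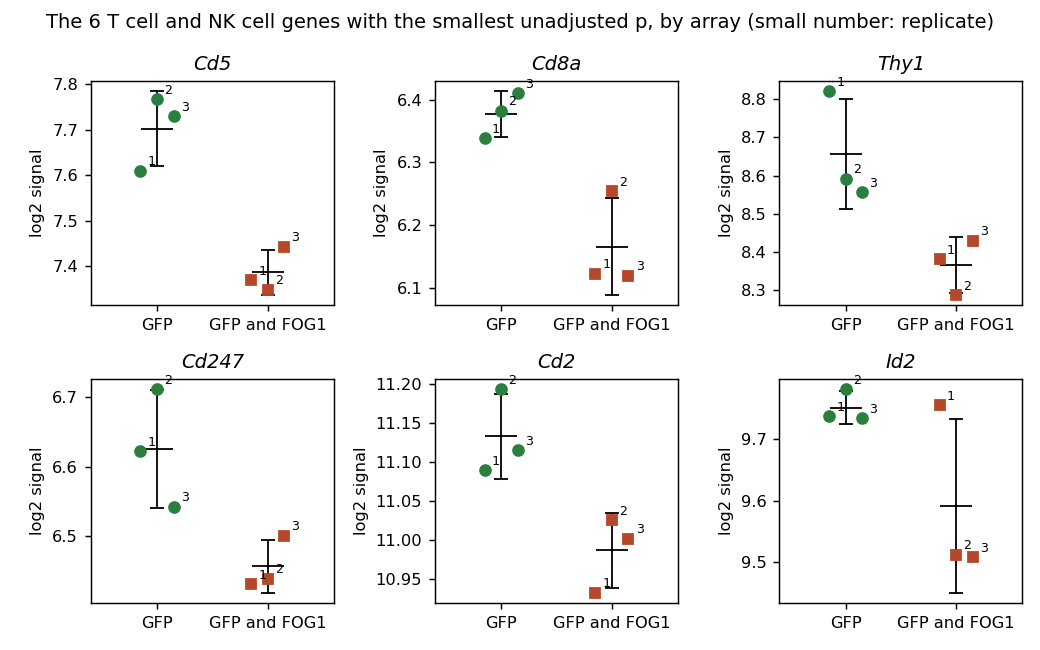
Log2 signal (y axes, not starting at 0) of the 6 genes with the smallest unadjusted p in the 2 groups (x axis), with circles for GFP-alone arrays, squares for GFP and FOG1 arrays, and bars for the mean and SD of 3 arrays. Cd5, Cd8a, Thy1, Cd247 and Cd2 have FOG1 values below every GFP-alone value, and for Id2 FOG1 replicate 1, at 9.76, lies among the GFP-alone arrays.

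Genes of proximal receptor signalling had overlapping groups in all 4 cases measured. Lat (10567825), the membrane adaptor that gathers signalling proteins after receptor activation, was above the median signal on every array. It was 7.86, 7.99 and 7.84 with GFP alone and 7.92, 7.81 and 7.86 with FOG1, a change of -0.03 (SE 0.060; limma adjusted p = 0.84). Zap70, the kinase that binds phosphorylated CD3 chains, lay at percentile 29.2 with a change of 0.01. Txk, a kinase of the TEC family, lay at the same percentile of 29.2 with a change of -0.07. Themis (10362350), a regulator of thymocyte selection, was 4.85, 4.91 and 4.92 with GFP alone and 4.87, 4.82 and 4.94 with FOG1, a change of -0.02. It was among the 3 dimmest of the 31 genes, and its change was 0.00 after quantile normalization and after median centring.

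Among costimulatory and interleukin 2 receptors, only Il2ra was above the median signal. Il2ra (10469278), the alpha chain of the interleukin 2 receptor, was 10.11, 10.12 and 10.02 with GFP alone and 10.09, 10.10 and 10.20 with FOG1. It lay at percentile 89.9, its groups overlapped, and the change was 0.05 (SE 0.055; limma adjusted p = 0.73). Il2rb (10430344), the beta chain shared with the interleukin 15 receptor, was 5.90, 5.92 and 5.82 with GFP alone and 5.80, 5.83 and 5.67 with FOG1. Its groups overlapped because FOG1 replicate 2 lay above GFP-alone replicate 3, with a change of -0.11 (SE 0.060; limma adjusted p = 0.48).

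Cd28, the main costimulatory receptor of T cells, and Ctla4 and Icos, an inhibitory and an inducible relative of it, are neighbours on chromosome 1. Ctla4 (10346790) was 5.72, 5.37 and 5.57 with GFP alone and 5.39, 5.27 and 5.51 with FOG1. Its SE was the largest of the 31 genes, at 0.106 on a change of -0.17 (limma adjusted p = 0.55), which was -0.08 without GFP-alone replicate 1, -0.26 without GFP-alone replicate 2 and -0.10 when FOG1 replicate 2 was left out. Cd28 was at 5.59 ± 0.10 and 5.49 ± 0.06 and Icos at 6.16 ± 0.09 and 6.16 ± 0.01 (SD, n = 3 per group). All 3 lay below the median signal, with overlapping groups.

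Of the transcription factors, Id2 and Bcl11b were above the median signal. Id2 (10399691) encodes an inhibitor of E proteins that is needed for NK cells and other innate lymphocytes. It was 9.74, 9.78 and 9.73 with GFP alone and 9.76, 9.51 and 9.51 with FOG1. FOG1 replicate 1 lay within the range of the GFP-alone arrays and the other 2 FOG1 arrays below it, and the change was -0.16 (SE 0.076; limma adjusted p = 0.44). Without FOG1 replicate 1 it was -0.24 (limma adjusted p = 0.16). Bcl11b, a factor of T-lineage commitment, was at 7.30 ± 0.07 and 7.26 ± 0.10, with a change of -0.04. Tbx21, which encodes T-bet of type 1 T cells and NK cells, and Eomes, its relative in NK and CD8 T cells, lay below the median, with changes of -0.06 and -0.09. In all but Id2, the 2 groups' means differed by less than the larger SD of the 2 groups.

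Neither of the NK receptor genes and 1 of the 4 cytotoxic granule genes, Prf1, had a signal above the median. Ncr1 (10549647) encodes the NK receptor NKp46. Its signal was at percentile 12.4 and was 4.77, 4.92 and 4.93 with GFP alone and 5.10, 4.92 and 4.90 with FOG1. Its groups overlapped, with a change of 0.10 (SE 0.075; limma adjusted p = 0.61), which was 0.04 when FOG1 replicate 1 was left out and 0.05 when GFP-alone replicate 1 was. Klrd1, the CD94 chain of NK receptors, lay at percentile 21.4 with a change of -0.02.

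Gzma (10412211), the granule protease granzyme A, was 5.14, 4.93 and 4.91 with GFP alone and 5.13, 4.83 and 4.83 with FOG1. In each group replicate 1 was the highest array, and the change was -0.06 (SE 0.104; limma adjusted p = 0.83). Gzmb (10420308), granzyme B, was 5.78, 5.79 and 5.68 with GFP alone and 5.66, 5.62 and 5.71 with FOG1, and its groups overlapped with a change of -0.09 (SE 0.051; limma adjusted p = 0.52). Prf1, the pore-forming perforin, was at 7.10 ± 0.09 and 7.03 ± 0.04, and Nkg7, a granule membrane protein, at 6.87 ± 0.12 and 6.83 ± 0.06 (SD, n = 3 per group). All 4 granule genes had negative changes between -0.09 and -0.04, and none passed.

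The arrays did not share the 31 genes' extremes evenly. FOG1 replicate 2 was the lowest of the 6 arrays for 12 of the 31 genes (38.7%), against 19.5% of all probe sets, and the highest for none. The mean over the 31 genes was 6.58, 6.60 and 6.59 with GFP alone and 6.55, 6.49 and 6.55 with FOG1. Without FOG1 replicate 2 the median change of the 31 genes was -0.01 and 18 changes were negative, against -0.05 and 22 with all arrays. The median over all probe sets was then -0.004. Leaving out an array picked for its low values raises the FOG1 side by construction. When any other array was left out, 20 to 25 changes were negative and the median ran from -0.074 to -0.048. Over 10 T cell markers among the 31 genes (the CD3 chains, Cd247, Cd4, Cd8a, Cd8b1, Zap70, Lat and Bcl11b), of which 3 were above the median signal, the mean was 6.30 to 6.36 with GFP alone and 6.25 to 6.35 with FOG1. A set of 8 NK cell markers held Ncr1, Klrd1, Nkg7, Gzma, Prf1 and Eomes of the 31 genes and also Klrb1c and Klre1, which are not among them. Of these only Prf1 was above the median, and the mean was 5.43 to 5.45 and 5.38 to 5.43. The ranges overlapped for the T cell markers, among which Cd247 and Cd8a had separate groups. They did not for the NK cell markers, where the higher FOG1 end of 5.429 lay under the lower GFP-alone end of 5.434. That gap was smaller than the spread of the array medians, 6.98 to 7.04, and all 8 NK cell markers had overlapping groups as single genes. The mean over the 31 genes was also lower on every FOG1 array, and a difference between the marker sets was not tested.

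**Figure D4:**
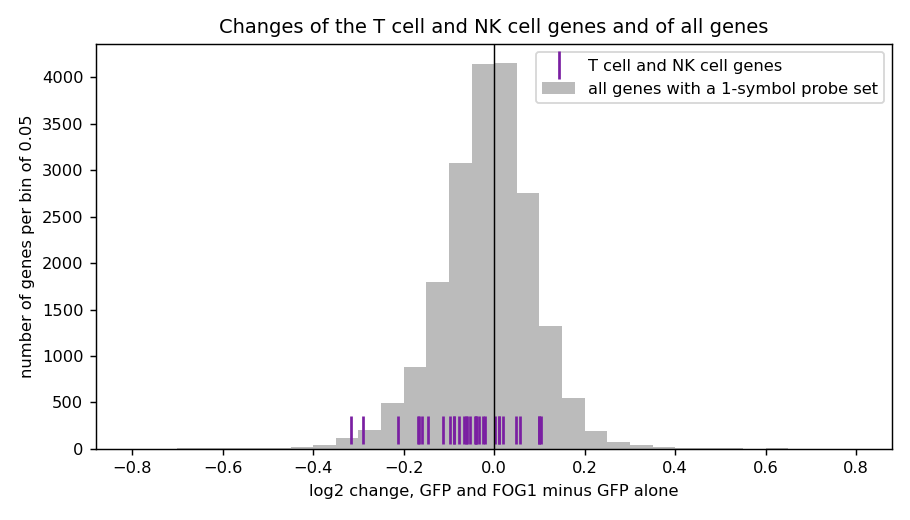
Number of genes (y axis) in bins of log2 change (x axis, GFP and FOG1 minus GFP alone) for the 19937 genes with a 1-symbol probe set, of which 15 lie outside the axis, with a tick for each of the 31 T cell and NK cell genes. Of the 31 ticks, 3 (9.68%) lie below the 5th percentile of all genes, -0.19, and none above the 95th, 0.14.

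Other genes of the same pathways were read from further lists, and none of their measured members passed either. Of 24 T cell receptor signalling genes, 19 were above the median signal, and 5 had an unadjusted p under 0.05, 3 lower and 2 higher with FOG1, which is 20.8% against 12.5% of all probe sets. The groups of 11 of the 24 did not overlap (45.8%, against 19.6% of all probe sets), 6 lower and 5 higher. These genes were brighter and less variable than the table as a whole, with a median percentile of 81.3. Their median SE was 0.050, against 0.066 over all probe sets. The part of this in the share with separate groups was not tested. The 3 with the smallest p were the phosphatase gene Ptpn22 (change -0.27; limma adjusted p = 0.11), the RAS activator gene Rasgrp1 (0.18; 0.22) and Nfatc1, a calcium-regulated transcription factor (-0.18; 0.22). The median change was -0.03, and B cells share many of these genes. Of 17 T-lineage regulators, 13 were above the median and none had an unadjusted p under 0.05, while 2 had separate groups (11.8%), both higher. Gata3 itself was 6.17, 6.31 and 6.20 with GFP alone and 6.17, 6.05 and 6.01 with FOG1, with overlapping groups and a change of -0.15 (limma adjusted p = 0.41). Tcf12 and Lef1 had changes of 0.09 and 0.07.

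Of 18 further T cell receptors and costimulatory genes, 8 were above the median and 5 had an unadjusted p under 0.05 (27.8%, against 12.5% of all probe sets), 3 lower and 2 higher. The groups of 8 of the 18 did not overlap (44.4%, against 19.6%), 6 lower and 2 higher. Those with the smallest p were the activation marker gene Cd69 (-0.25; limma adjusted p = 0.12), Il7r, which encodes a receptor chain for interleukin 7 (0.20; 0.21) and the adhesion receptor gene Cd44 (-0.18; 0.28). Of 26 further NK and cytotoxic genes only 4 were above the median. The 3 with separate groups (11.5%) were all lower, against 10.5% of all probe sets separate and lower and 19.6% in either direction. An unadjusted p under 0.05 was found for 2 of the 26 (7.69%), against 12.5% of all probe sets in either direction and 6.94% lower with FOG1. They were the granzyme gene Gzmc (-0.38; limma adjusted p = 0.22) and the lysosomal gene Lamp1 (-0.17; 0.26). The NK receptor gene Klrk1 came next (-0.16; 0.43). The medians of these lists were -0.08 and -0.06.

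Markers of other cell types were read beside these values. None of 10 neutrophil and 8 mast cell and basophil markers was above the median signal, and 3 of 10 dendritic cell, 2 of 8 erythroid and megakaryocyte and 4 of 11 monocyte and macrophage markers were. The mean of the monocyte and macrophage markers was 6.92 to 6.95 with GFP alone and 6.69 to 6.76 with FOG1. Itgam, at a change of -1.11, was the gene among them that passed (limma adjusted p = 0.0075). Mpeg1 (-0.57; limma adjusted p = 0.18) and Cd14 (-0.20; 0.26) came next. The mean was weighted by Itgam and Mpeg1, while the median change of the 11 was -0.11, with 10 negative and 1 positive. The part of these markers in the values of the T cell and NK cell genes was not tested. B-lineage markers had a median change of -0.01, with Cd79a (-0.41; limma adjusted p = 0.088), Cd79b (-0.16; 0.25) and Rag2 (0.23; 0.33) at the smallest p.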

How the data were processed

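The values are log2 signals as deposited by the authors, 1 for each of 34760 probe sets on 6 arrays. Per the labels' protocols, 100 ng of total RNA was isolated without DNase, amplified and biotin-labelled. The submitters' processing notes name affy, with no version, and the sources used here do not give the background correction, the normalization or the summary of probes. The log2 scale was read from the values, which run from 3.12 to 14.07 with array medians of 6.98 to 7.04. The main fit did not centre the arrays further, so small changes depend on how the arrays were scaled. After median centring the median change of the 31 genes was -0.03, with 20 negative, against 0.02 over all probe sets. Precision is limited by the number of arrays.

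Names came from the platform annotation, which gave 1 symbol for 21640, several for 1321 and none for 11799, and all 31 measured symbols were the same in RefSeq (GRCm38.p6). Groups came from the sample titles. The fit was limma 3.58.1 in R 4.3.3 (lmFit, eBayes, no block, no filter), with Benjamini-Hochberg adjustment over all probe sets and a threshold of 0.05. In 10 simulated runs drawn from the measured means and SDs, with 200 of 34760 probe sets changed, it recovered 60.0% of log2 changes of 0.5, 87.6% of changes of 1 and 97.6% of changes of 2. Changes as small as those of the T cell and NK cell genes were not simulated.

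The genes and lists were chosen with earlier results of these data known. Values on each array are given for the 10 genes with the smallest unadjusted p, the 5 receptor chains, and the 5 brightest and 3 dimmest genes. Up to 3 genes with the smallest p are named from each further list, and Zfpm1 and Gata3 in every case. Neutrophil, mast cell and basophil, dendritic cell, and erythroid and megakaryocyte lists are given by counts and shares only. Promoters are RefSeq sequence, and 9 of the 31 genes were not matched there. The labels give replicate numbers and name no shared batch, so no pairing was assumed. Deviations from the group means correlated at -0.07, 0.01 and -0.04 between arrays of the same number. With 3 arrays per group these deviations are tied to each other, so the correlations cannot show that pairing was absent. Plots used matplotlib 3.10.9 (Python 3.11.15).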

Additional observations from a re-analysis of the deposited data

How the results depend on the processing

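None of the 31 genes passed in any of 14 alternatives: quantile normalization, median centring, leaving out dim probe sets (9 genes left), testing 1-symbol probe sets alone, the replicate block, robust estimation with a variance trend, weights for the arrays, averaging the probe sets of a gene, and leaving out each array in turn. The smallest limma adjusted p for Cd5 was 0.071, in the fit over genes, and the highest 0.42. With the replicate block 0 of the 31 genes passed and 9 probe sets in all, against 78, and no array of the 6 had its highest correlation with the array of its own number. Without 1 array 17 to 38 probe sets passed. These fits had fewer samples, and the count also varied with the array left out. Why it fell below 78 was not tested. The count of genes above the median signal, 9 in the main setting, was 7 to 9 in every setting tried for it. It was 7 with the median over 1-symbol probe sets as the line, where Cd3e and Prf1, the dimmest of the 9, fell below. The 5 genes with separate groups became 8 or 9 without 1 array, an alternative chosen after seeing the data, while the share of all probe sets rose to 27.1% to 36.1%. With fewer arrays separation is easier by construction. Of 254 changes of the 19 genes given by array, 246 kept their direction. The 8 that turned were uncalled and near 0. Themis was at 0.0036 after quantile normalization and 0.0046 after median centring. Without 1 array the changes ran from -0.051 to 0.0044 for Themis, -0.103 to 0.012 for Cd3g, -0.029 to 0.134 for Cd3e, -0.157 to 0.015 for Gzma, -0.0045 to 0.061 for Ptcra and -0.063 to 0.013 for Lat. The cause was not tested. Leaving out 1 array moved the change of 12 of the 19 genes by over 1.5 times, among them Cd3d (0.044 to 0.167), Il2ra (0.013 to 0.070), Il2rb (-0.146 to -0.065), Ncr1 (0.037 to 0.137) and Ctla4 (-0.260 to -0.082), but not those of Cd2, Cd247, Cd4, Cd5, Cd8a, Gzmb and Thy1. The level of background was not measured, so how far it limits the dimmer genes is unknown.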
